A study of Homo sapiens with 15 samples.

Results

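The genes described here are 38 genes of autophagy and of the lysosome, chosen by name for their function from the 69215 genes listed in the count tables. The list was drawn up with earlier results of these data known. Its shares beside those of all tested genes are therefore a description and not a test. They cover the autophagosome machinery, the cargo receptors, the TFEB family of transcription factors, the lysosomal membrane, the cathepsins, 3 glycosidases and the lysosomal proton pump. All 38 were found in the tables, and 37 passed the filter on low counts and were tested among 12769 genes. GABARAP did not pass.

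The cells were monolayers of Caco-2, a human colon adenocarcinoma line widely used as a model of the intestinal epithelium. Unexposed cells (control) were compared with cells exposed for 24 h to 0.05% polysorbate 20 (PS20) and with cells exposed for 24 h to 0.05% polysorbate 80 (PS80), with 5 libraries of polyA RNA in each group. Both polysorbates are non-ionic food emulsifiers made of an ethoxylated sorbitan esterified with a fatty acid, mainly laurate in polysorbate 20 and oleate in polysorbate 80. The labels do not say that replicates came from separate cultures, so p-values measure only the spread between these libraries, which may be technical.

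In autophagy, a kinase complex with ULK1 and a lipid kinase complex with BECN1 start a membrane that closes around cargo, ubiquitin-like conjugation attaches proteins of the ATG8 family to that membrane, and receptors such as SQSTM1 tie cargo to it. The closed vesicle fuses with a lysosome, where a proton pump keeps the lumen acidic and cathepsins and glycosidases break the cargo down. TFEB, TFE3 and MITF are related transcription factors that bind a motif found in many lysosomal genes, and the mTORC1 kinase on the lysosome holds TFEB and TFE3 in the cytoplasm when nutrients are plentiful. An mRNA level reports neither autophagic flux nor the location of these factors.

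Total counts per library ran from 4183096 to 42271053, with a median of 8829612, and the deepest library was PS80 replicate 2. Of the 5 PS80 libraries, 4 (replicates 1, 3, 4 and 5) were counted with a later version of the counting program than the other 11 libraries, so in those 4 the counting version and PS80 cannot be told apart. Replicates 1 and 2 stood apart from replicates 3 to 5 in earlier work on these data. Of 12 epithelial markers 10 were tested, with a summed level of 11173 to 12801 CPM (counts scaled to a common library size) in control, 9356 to 10056 in PS20 and 11403 to 11960 in PS80; KRT20 had no count. The markers did not move together with PS20: KRT8, KRT18, KRT19, VIL1 and AFP fell (log2 fold changes -0.73, -0.61, -0.50, -0.29 and -1.85), CDX2 and CDH1 rose (0.37 and 0.12), and 3 did not pass. The share of mitochondrial counts was 1.497% to 1.91% in control, 2.03% to 2.58% in PS20 and 1.45% to 2.97% in PS80. Of 17 markers of other cell types 6 were tested, with summed levels of 161 to 178, 157 to 179 and 150 to 198 CPM, and the defining marker HBB had no count. COL1A1 was present at 78.8 to 139.7 CPM over all libraries, with COL3A1, PDGFRB, CD14, PECAM1 and LUM the other tested ones. Of these, PDGFRB fell with PS20 and PS80 (-1.01 and -0.85), CD14 rose with both (0.49 and 0.40) and PECAM1 rose with PS80 (0.56). In PS80 the mitochondrial share was above control only in replicates 1 and 2 (2.16% and 2.97%) and was 1.45% to 1.67% in replicates 3 to 5. The lower keratin levels and higher mitochondrial share with PS20, and these marker changes, moved with the groups compared below. Their part in the results was not tested. In bulk RNA, fewer cells of a type and less RNA per cell cannot be told apart.

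PS20 moved individual members of the list up and down in equal number, with the largest rise in LAMP3, a lysosome-associated membrane protein, at 2.94-fold. Of the 37 tested members 11 rose and 11 fell with PS20 (edgeR quasi-likelihood test, adjusted p under 0.05), beside 24.4% of all tested genes that rose, 23.9% that fell and 48.3% called in either direction. The median log2 fold change of the members was 0.01, and that of all tested genes was 0.01. With PS80, 4 members rose and 12 fell, beside 17.4% and 16.0% of all tested genes, 33.4% in all, and the members' median was -0.05 beside 0.00. Both comparisons use the same control libraries. With replicates 1 and 2 alone, 15 of the 22 PS20 calls and 4 of the 16 PS80 calls were kept, and with replicates 3 to 5 alone 21 and 16 were kept. Over all tested genes, 3115 rose and 3048 fell with PS20 when all libraries were used. These numbers were 1545 and 1571 with replicates 1 and 2 alone, and 3222 and 3124 with replicates 3 to 5 alone. With PS80 they were 2224 and 2042, then 1103 and 922, then 2006 and 1956. Replicates 1 and 2 also leave fewer libraries per group than replicates 3 to 5. The levels of all members in each library are shown in the heat map.

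**Figure D1:**
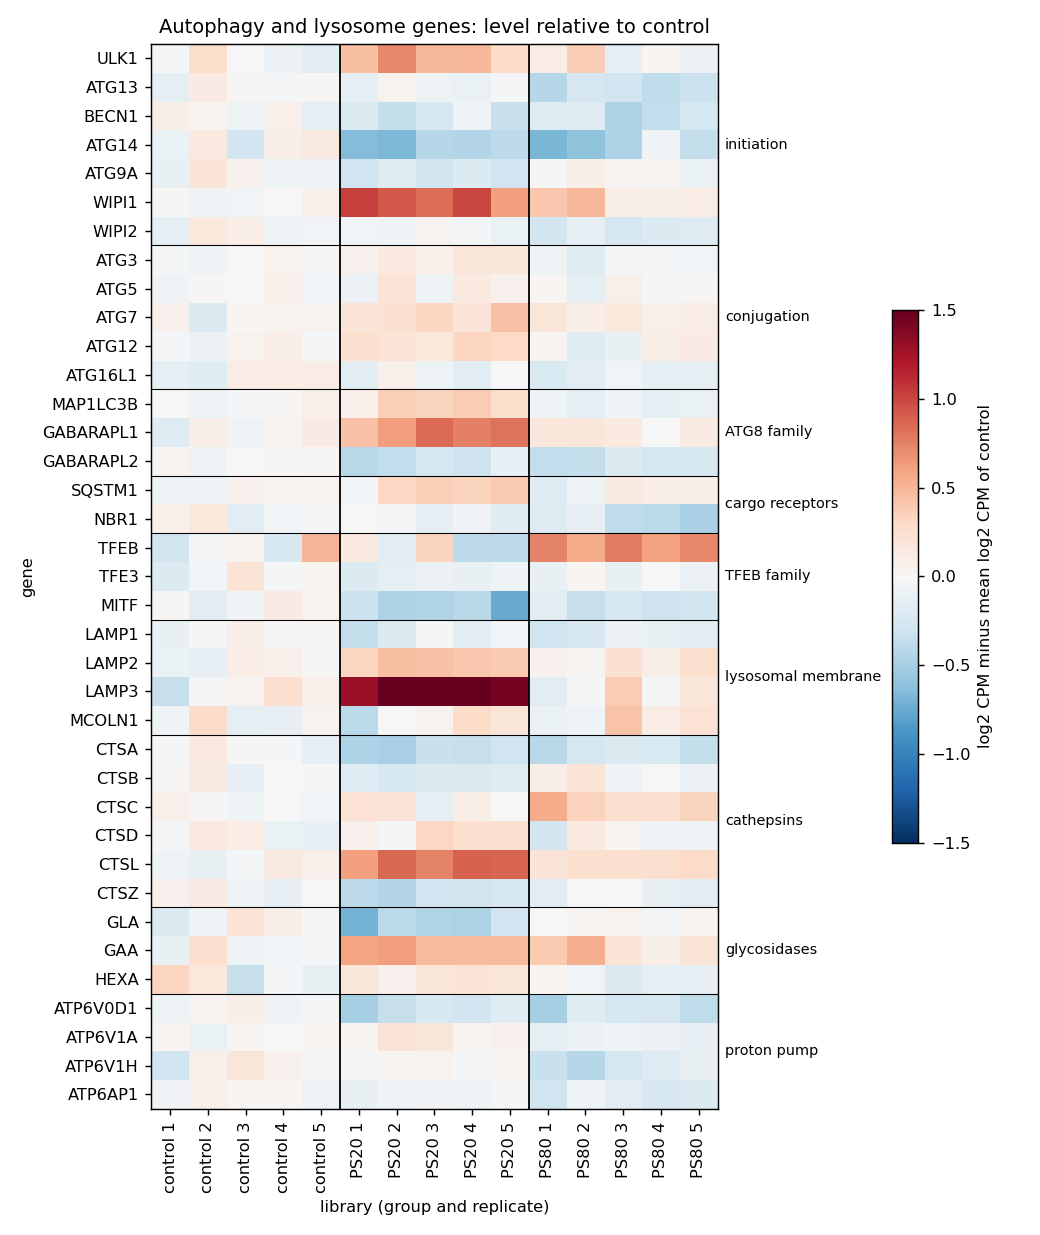
Level of each tested member (rows, grouped by role) in each of the 15 libraries (columns), as log2 CPM minus the mean log2 CPM of control; the colour scale is capped at 1.5 in both directions. The row of LAMP3 is the darkest red in all 5 PS20 libraries, where its level was 27.2 to 43.1 CPM.

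Against control, 13 members passed with PS20 alone, 7 with PS80 alone and 9 with both. Those 9 moved in the same direction with both, with CTSL and GAA higher and BECN1, ATG14, GABARAPL2, MITF, LAMP1, CTSA and ATP6V0D1 lower. No member moved in opposite directions, and 8 passed with neither. Of all tested genes 48.3% were called with PS20 and 33.4% with PS80. How these calls cross over all tested genes was not counted, so the member counts are not read as particular to the members. Passing with 1 polysorbate alone does not show a difference between them, which was tested directly and is given after the single groups of genes.

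**Figure D2:**
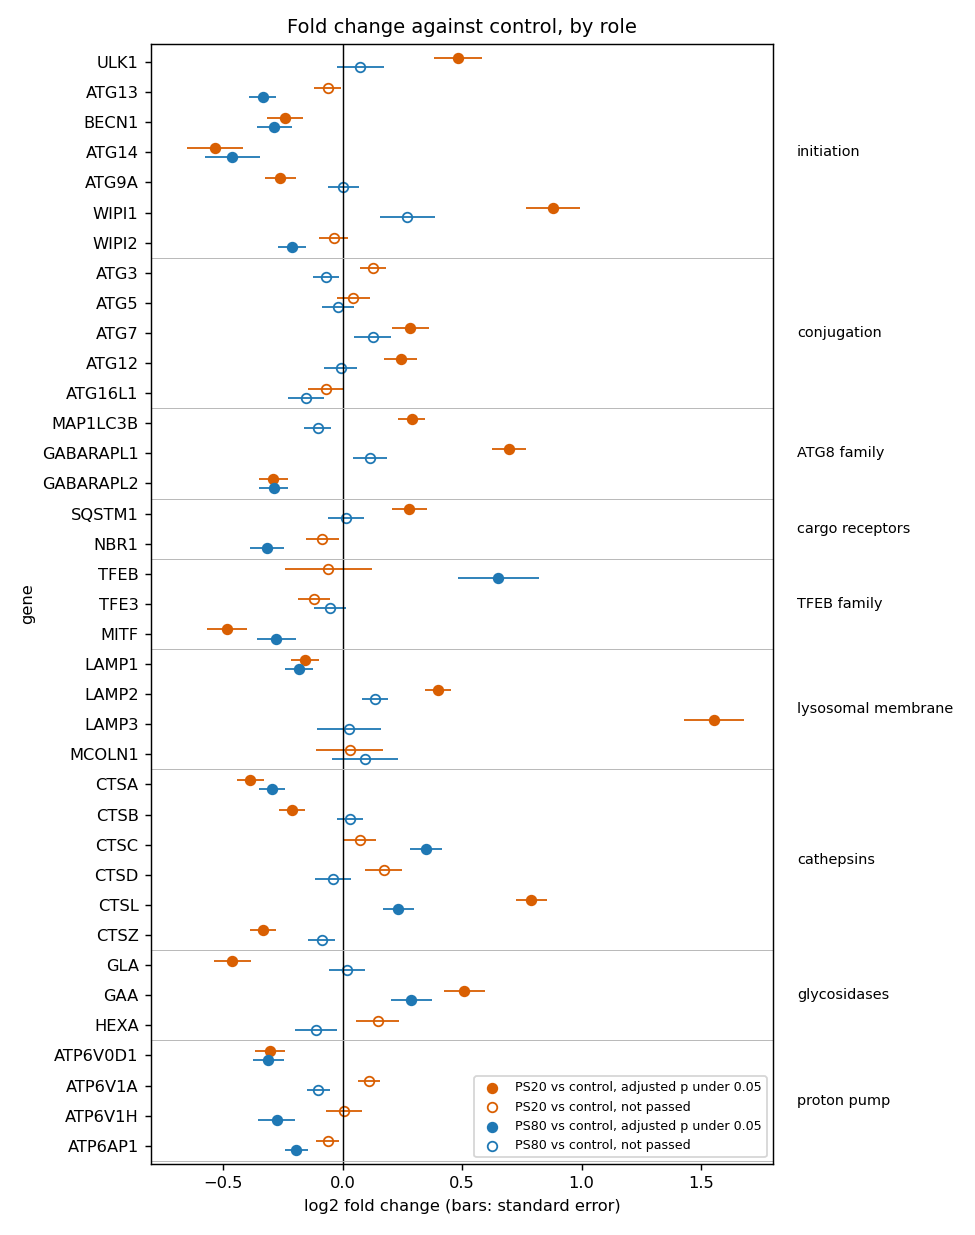
Log2 fold change against control of each tested member, by role, for PS20 and PS80; bars are standard errors, filled points passed at an adjusted p under 0.05 and open points did not. LAMP3 at 1.55 with PS20 lies furthest to the right, and ATG14 at -0.53 with PS20 furthest to the left.

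Of the 7 genes that start the autophagosome, 2 rose and 3 fell with PS20, and none rose and 4 fell with PS80. ULK1 (ENSG00000177169.10, GRCh38 chromosome 12, 131894622 to 131923150), the kinase that begins the process, was at 48.7, 58.9, 49.4, 46.4 and 43.7 CPM in control, 67.3, 80.9, 68.7, 69.5 and 59.7 CPM in PS20 and 52.9, 63.7, 45.0, 50.3 and 46.1 CPM in PS80. All PS20 libraries lay above all control libraries, while the PS80 and control libraries overlapped. ULK1 rose 1.40-fold with PS20, a log2 fold change of 0.48 ± 0.10 (SE, adjusted p = 4.06e-04, edgeR), and its change with PS80 was 0.07 ± 0.10 (adjusted p = 0.606). WIPI1 (ENSG00000070540.13, chromosome 17, 68420948 to 68457513), which binds the phosphoinositide made by the BECN1 complex, was at 9.22, 8.74, 8.83, 9.02 and 9.56 CPM in control, 18.5, 17.1, 16.2, 18.1 and 13.9 CPM in PS20 and 12.05, 12.8, 9.69, 9.66 and 9.80 CPM in PS80. Every PS20 library exceeded every library of the other groups, and PS80 replicates 1 and 2 were the highest of PS80. WIPI1 rose 1.84-fold with PS20 (log2 fold change 0.88 ± 0.11, adjusted p = 2.06e-06); with PS80 its log2 fold change was 0.27 ± 0.11 and did not pass (adjusted p = 0.0731), although all 5 PS80 libraries lay above control. In the deposited annotation 28.09% of the exonic bases of WIPI1 are shared with other genes, among them ARSG.

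ATG14 (ENSG00000126775.9, chromosome 14, 55366391 to 55411830), the subunit that takes the lipid kinase to the autophagosome site, was at 17.2, 20.3, 15.04, 19.5 and 20.1 CPM in control, 11.7, 11.5, 13.6, 13.5 and 13.9 CPM in PS20 and 11.3, 12.02, 13.3, 17.6 and 14.3 CPM in PS80. The PS20 libraries were all below control, and PS80 replicate 4 reached into the control range. ATG14 fell by 0.53 ± 0.12 on the log2 scale with PS20 (adjusted p = 8.06e-04) and by 0.46 ± 0.11 with PS80 (adjusted p = 0.00388); 20.84% of its exonic bases are shared with FBXO34. BECN1, the scaffold of the same complex, was at 41.9 ± 2.83 CPM in control (mean ± SD, n = 5), 35.5 ± 3.07 in PS20 and 34.2 ± 2.79 in PS80, and fell with both (log2 fold changes -0.24 and -0.29, adjusted p = 0.0114 and 0.00478). With replicates 3 to 5 alone the fall of BECN1 with PS20 did not pass (-0.18, adjusted p = 0.0828). ATG9A, a membrane carrier with 38.8% of its exonic bases shared, fell with PS20 (-0.26, adjusted p = 0.00271), and ATG13, a partner of ULK1, fell with PS80 (-0.33, adjusted p = 1.40e-04). WIPI2, a relative of WIPI1, also fell with PS80 (-0.21, adjusted p = 0.00895), a call that was lost when genes were not filtered on low counts.

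Of the 5 conjugation genes 2 rose and none fell with PS20, and none passed with PS80. ATG7, the activating enzyme, was at 20.1 ± 1.498 CPM in control and 24.4 ± 1.82 CPM in PS20 (log2 fold change 0.28 ± 0.08, adjusted p = 0.00464). ATG12, a ubiquitin-like protein, was at 62.2 ± 3.28 and 73.8 ± 3.44 CPM (0.24 ± 0.07, adjusted p = 0.00564). The annotation shares 18.08% of the exonic bases of ATG7 with other genes. ATG3, ATG5 and ATG16L1 passed against control with neither polysorbate, with log2 fold changes between -0.15 and 0.13. ATG3 passed with PS20 without PS20 replicate 1 or PS80 replicate 2 (adjusted p 0.0440 to 0.0479), and ATG16L1 with PS80 without control replicate 2 (0.0425). With replicates 3 to 5 alone ATG16L1 also passed with PS80 (-0.23, adjusted p = 0.0309). The level of ATG16L1 is uncertain, because a scaffold carries a gene whose exon lengths match all 51 of its own.

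The ATG8 family did not move as 1 block with PS20. GABARAPL1 (ENSG00000139112.11, chromosome 12, 10212458 to 10223128), which coats the growing membrane, was at 84.5, 102, 92.9, 99.2 and 105 CPM in control, 131, 149, 173, 162 and 169 CPM in PS20 and 108, 108, 106, 95.9 and 106 CPM in PS80. The PS20 libraries were all above the other groups, and PS80 overlapped control. It rose 1.62-fold with PS20 (log2 fold change 0.70 ± 0.07, adjusted p = 1.21e-07) and was at 0.12 ± 0.07 with PS80 (adjusted p = 0.232). MAP1LC3B (ENSG00000140941.14, chromosome 16, 87383953 to 87404779), the LC3 protein used as the standard autophagosome marker, was at 111, 106, 109.8, 112 and 117 CPM in control, 118, 143, 139.7, 145 and 133 CPM in PS20 and 106, 101, 106, 101 and 104 CPM in PS80. PS20 replicate 1 was the lowest of its group and only just above the highest control library. MAP1LC3B rose 1.22-fold with PS20 (0.29 ± 0.06, adjusted p = 2.39e-04) and did not pass with PS80 (-0.10 ± 0.06, adjusted p = 0.159). GABARAPL2 went the other way, from 78.3 ± 2.29 CPM in control to 63.9 ± 4.95 CPM in PS20 and 64.2 ± 3.19 CPM in PS80 (log2 fold changes -0.29 and -0.29, adjusted p = 4.71e-04 and 9.06e-04). GABARAP had 26 counts over all 15 libraries, with 48.23% of its exonic bases shared with other annotated genes, and its counts are not read as a level. MAP1LC3B and GABARAPL1 have near-identical copies elsewhere in the genome, so their levels are uncertain where reads could not be placed.

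Of the cargo receptors, SQSTM1 rose with PS20 and NBR1 fell with PS80. SQSTM1 (ENSG00000161011.20, chromosome 5, 179806398 to 179838078), also called p62, binds ubiquitinated cargo and is itself degraded by autophagy. It was at 160.4, 160.5, 177, 175 and 174 CPM in control, 165, 209, 217, 213 and 222 CPM in PS20 and 148, 161, 186, 181 and 181 CPM in PS80. PS20 replicate 1 lay within the control range and the other PS20 libraries above it. The log2 fold change of SQSTM1 with PS20 was 0.28 ± 0.07 (adjusted p = 0.00371), and with PS80 it was 0.01 ± 0.07 (adjusted p = 0.908); 22.39% of its exonic bases are shared with MGAT4B and MRNIP. NBR1, a related receptor, was at 167 ± 14.4 CPM in control, 158 ± 8.27 in PS20 and 134 ± 14.1 in PS80, and fell by 0.32 ± 0.07 on the log2 scale with PS80 (adjusted p = 0.00154).

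TFEB and MITF moved in different ways, and TFE3 did not pass in any comparison. TFEB (ENSG00000112561.19, chromosome 6, 41683978 to 41736259) was at 3.64, 4.32, 4.54, 3.74 and 6.28 CPM in control, 4.88, 3.92, 5.59, 3.35 and 3.35 CPM in PS20 and 7.39, 6.51, 7.60, 6.70 and 7.28 CPM in PS80. All PS80 libraries were above all others. Of these, only PS80 replicate 2 was counted with the earlier program version, and the part of the version was not tested. TFEB rose 1.57-fold with PS80 (log2 fold change 0.65 ± 0.17, adjusted p = 0.00541) and was at -0.06 ± 0.18 with PS20 (adjusted p = 0.81). It rests on few reads, 17 to 269 counts per library. MITF (ENSG00000187098.18, chromosome 3, 69739456 to 69968336) was at 25.5, 22.64, 24.4, 27.5 and 26.2 CPM in control, 20.1, 18.2, 18.4, 18.9 and 14.97 CPM in PS20 and 22.57, 19.9, 21.3, 20.3 and 20.8 CPM in PS80. Both exposed groups lay below control, PS80 replicate 1 only just. MITF was lower by 0.48 ± 0.08 on the log2 scale with PS20 (adjusted p = 7.45e-05) and by 0.28 ± 0.08 with PS80 (adjusted p = 0.0119). Without control replicate 4 the PS80 call of MITF ended (adjusted p = 0.0519). TFE3 (ENSG00000068323.17, chromosome X, 49028726 to 49043410) was at 42.02, 46.9, 55.6, 47.7 and 50.3 CPM in control, 41.8, 43.6, 45.5, 44.7 and 46.4 CPM in PS20 and 44.6, 49.3, 44.9, 48.4 and 45.4 CPM in PS80. The groups overlapped, and its log2 fold changes were -0.12 with PS20 and -0.05 with PS80 (adjusted p = 0.143 and 0.575). Without control replicate 1, TFE3 passed with PS20 (adjusted p = 0.0382).

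The motif of the TFEB family, known as CLEAR, is GTCACGTG with the extended palindrome core TCACGTGA, and the sequences below show where it stands in members that moved in different directions. RefSeq promoter windows (GRCh38.p14, from 250 bases before to 50 bases after the start) were found for 32 members, 41 windows in all, and were searched on both strands. GTCACGTG was in 8 of 41 windows (19.51%) beside 2.40% of all 35116 windows, and TCACGTGA, which overlaps it, in 6 of 41 (14.63%) beside 0.980%. CACGTG, the core of both, was in 8 of 41 beside 7.26%. The members were chosen for their function and the motif is known from lysosomal genes, so its higher share in them tests nothing. TGATGNAA, a core of the ATF4 composite site, was in none beside 3.62%, and TGACNNNGC, a core of the NRF2 element, was in 10 of 41 (24.39%) beside 13.35%. The 250 bases before the start are given 5′ to 3′ on the strand of the gene, with each GTCACGTG or TCACGTGA match, on either strand, in capitals, for GAA (rose with both polysorbates), CTSA, LAMP1 and ATP6V0D1 (fell with both), MCOLN1 (passed with neither) and GABARAPL1 (rose with PS20, no match).
GAA, chr17:80101331-80101580, plus strand: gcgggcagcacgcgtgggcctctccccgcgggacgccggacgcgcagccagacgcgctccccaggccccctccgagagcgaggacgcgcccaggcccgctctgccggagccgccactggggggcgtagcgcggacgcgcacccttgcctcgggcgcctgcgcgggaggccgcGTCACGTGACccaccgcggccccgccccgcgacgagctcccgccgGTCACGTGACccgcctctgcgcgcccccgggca
CTSA, chr20:45891085-45891334, plus strand: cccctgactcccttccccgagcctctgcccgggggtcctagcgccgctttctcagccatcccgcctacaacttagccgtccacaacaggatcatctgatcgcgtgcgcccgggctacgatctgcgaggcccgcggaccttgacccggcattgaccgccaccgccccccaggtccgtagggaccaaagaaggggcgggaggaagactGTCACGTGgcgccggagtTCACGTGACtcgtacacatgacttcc
LAMP1, chr13:113296989-113297238, plus strand: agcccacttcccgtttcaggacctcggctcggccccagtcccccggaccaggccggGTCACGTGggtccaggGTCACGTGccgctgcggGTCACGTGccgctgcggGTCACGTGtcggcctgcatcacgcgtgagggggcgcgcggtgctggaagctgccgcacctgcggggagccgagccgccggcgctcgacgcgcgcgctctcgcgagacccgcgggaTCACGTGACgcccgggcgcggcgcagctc
ATP6V0D1, chr16:67481158-67481407, minus strand: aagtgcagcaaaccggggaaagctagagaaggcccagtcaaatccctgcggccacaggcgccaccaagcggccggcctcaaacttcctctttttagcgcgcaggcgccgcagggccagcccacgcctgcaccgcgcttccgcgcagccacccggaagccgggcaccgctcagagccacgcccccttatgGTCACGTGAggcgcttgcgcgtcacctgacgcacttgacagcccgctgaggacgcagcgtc
MCOLN1, chr19:7522374-7522623, plus strand: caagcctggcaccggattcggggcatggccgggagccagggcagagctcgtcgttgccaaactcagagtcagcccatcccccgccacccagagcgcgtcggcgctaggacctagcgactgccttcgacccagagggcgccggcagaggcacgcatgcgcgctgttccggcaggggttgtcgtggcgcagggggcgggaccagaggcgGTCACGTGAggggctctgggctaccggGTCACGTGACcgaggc
GABARAPL1, chr12:10212627-10212876, plus strand: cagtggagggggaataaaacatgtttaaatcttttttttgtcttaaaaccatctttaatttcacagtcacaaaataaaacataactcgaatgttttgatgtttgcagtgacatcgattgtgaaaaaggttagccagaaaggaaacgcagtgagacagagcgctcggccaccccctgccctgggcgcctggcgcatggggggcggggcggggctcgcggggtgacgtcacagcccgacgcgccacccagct

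The 8 members with a GTCACGTG match were ATG3, ATG14, ATP6V0D1, CTSA, CTSD, GAA, LAMP1 and MCOLN1. With PS20, GAA alone of these rose, ATG14, ATP6V0D1, CTSA and LAMP1 fell, and ATG3, CTSD and MCOLN1 did not pass. Of all tested genes 24.4% rose and 23.9% fell with PS20. No window was found for LAMP2, LAMP3, CTSB, HEXA, ATP6V1A or ATP6V1H, so those genes were not searched. A match is a run of letters and not a bound site, and a window without one says only that these letters are not in it.

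Among the membrane proteins, 2 rose and 1 fell of 4 tested with PS20. LAMP3 (ENSG00000078081.8, chromosome 3, 183122215 to 183163839), first described in dendritic cells and carried on late endosomes and lysosomes, was at 8.79, 11.1, 11.5, 13.3 and 11.8 CPM in control, 27.2, 43.1, 34.3, 34.2 and 30.3 CPM in PS20 and 10.02, 11.1, 14.6, 11.02 and 12.6 CPM in PS80. The lowest PS20 library stood well above the highest library of the other groups, and PS80 overlapped control. LAMP3 rose 2.94-fold with PS20 (log2 fold change 1.55 ± 0.13, adjusted p = 3.97e-09) and was at 0.03 ± 0.13 with PS80 (adjusted p = 0.902, 95% interval -0.26 to 0.32). LAMP2, a major lysosomal membrane glycoprotein and the receptor of chaperone-mediated autophagy in one splice form, was at 304 ± 21.8 CPM in control, 400.4 ± 14.5 CPM in PS20 and 333 ± 21.7 CPM in PS80. It rose with PS20 (0.40 ± 0.05, adjusted p = 4.17e-06), and with PS80 it did not pass (0.13 ± 0.05, adjusted p = 0.0617). With PS80 LAMP2 passed when the replicate number was a block (0.14, adjusted p = 0.0170), with a mean of at least 5 CPM (adjusted p = 0.0468), with replicates 3 to 5 alone (0.0403), and without control replicate 3 or PS80 replicate 1 or 2 (0.0392 to 0.0491). LAMP1, the other major glycoprotein, was at 499.9 ± 25.6 CPM in control, 448 ± 40.6 CPM in PS20 and 441 ± 27.2 CPM in PS80, and fell with both (-0.16 and -0.18, adjusted p = 0.0349 and 0.0221). The PS20 call of LAMP1 ended without control replicate 3, 4 or 5 or PS20 replicate 1, 2 or 4 (adjusted p 0.0606 to 0.11), and its PS80 call without control replicate 3 or PS80 replicate 1 or 2 (0.0502 to 0.0647). MCOLN1, the lysosomal calcium channel, passed with neither (0.03 and 0.09, adjusted p = 0.882 and 0.637).

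**Figure D3:**
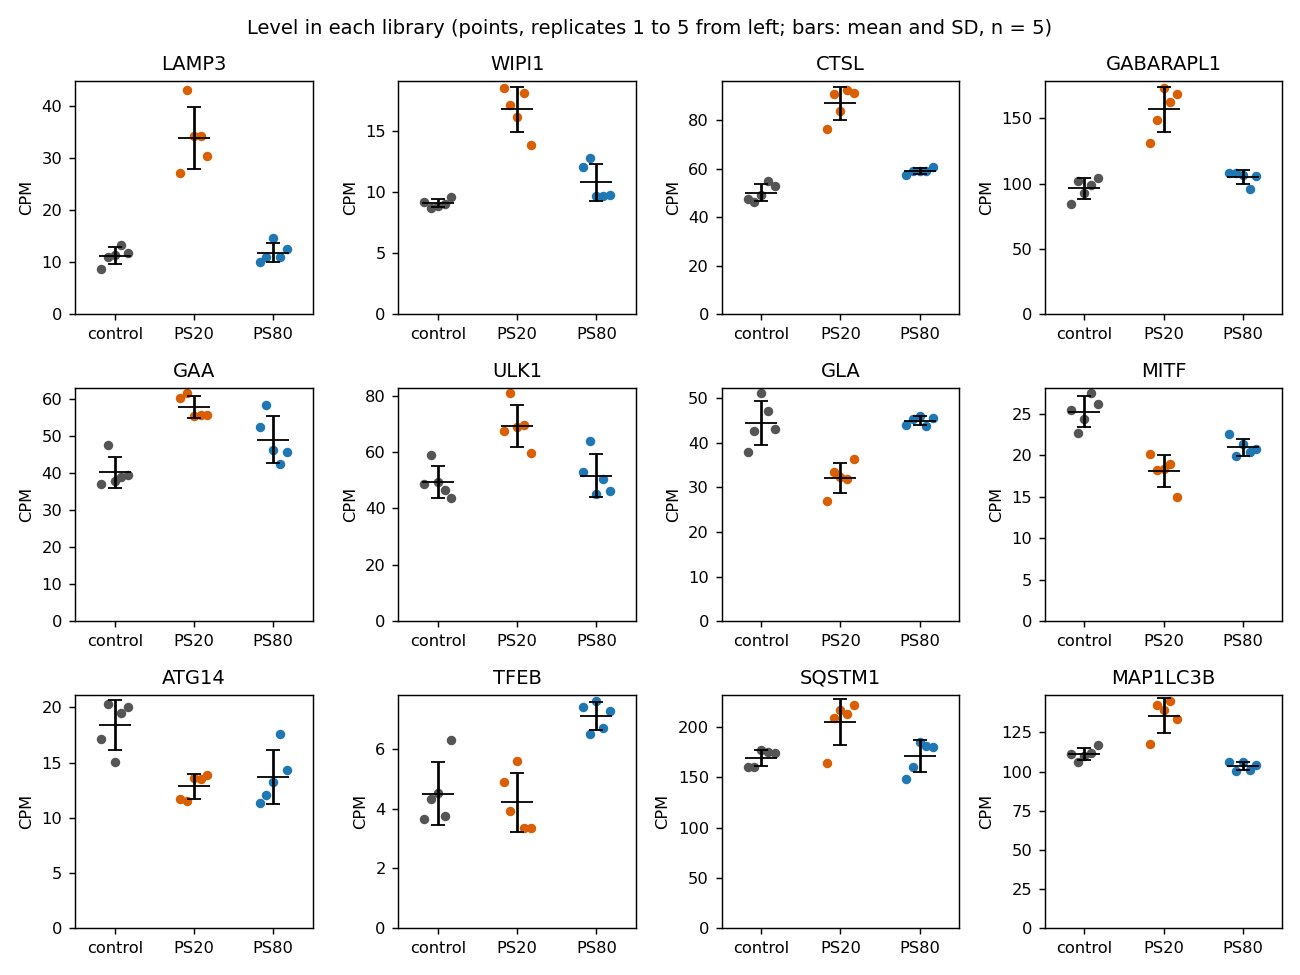
Level in CPM of 12 members in each library (points, replicates 1 to 5 from left) with the mean and SD (bars, n = 5) for control, PS20 and PS80. For LAMP3, CTSL, GABARAPL1 and WIPI1 all PS20 points lie above all other points, and for TFEB all PS80 points do.

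Of the 6 cathepsins, the proteases of the lysosome, 1 rose and 3 fell with PS20, and 2 rose and 1 fell with PS80. CTSL (ENSG00000135047.16, chromosome 9, 87724051 to 87731469), a cysteine endopeptidase, was at 47.6, 46.3, 48.9, 54.7 and 52.7 CPM in control, 76.4, 90.7, 83.6, 92.5 and 91.3 CPM in PS20 and 57.2, 59.1, 59.0, 59.1 and 60.8 CPM in PS80. The 3 groups did not overlap, with control lowest and PS20 highest. CTSL rose 1.73-fold with PS20 (log2 fold change 0.79 ± 0.06, adjusted p = 4.58e-09) and by 0.23 ± 0.06 on the log2 scale with PS80 (adjusted p = 0.00858). CTSC, a dipeptidyl peptidase, rose with PS80 from 216 ± 8.14 to 275 ± 25.5 CPM (0.35 ± 0.07, adjusted p = 4.77e-04) and did not pass with PS20 (0.07, adjusted p = 0.408). CTSA, a carboxypeptidase that also protects lysosomal galactosidase, fell from 328 ± 22.3 CPM to 251 ± 13.9 CPM with PS20 and 268 ± 16.5 CPM with PS80 (-0.39 and -0.30, adjusted p = 8.90e-06 and 3.92e-04). CTSB and CTSZ, both cysteine proteases, fell with PS20 (-0.21 and -0.33, adjusted p = 0.00326 and 4.55e-05) and did not pass with PS80. CTSD, the aspartic protease, passed with neither (0.17 and -0.04, adjusted p = 0.0706 and 0.729). With PS20 it passed without control replicate 2, PS20 replicate 2 or PS80 replicate 1 (0.0285 to 0.0472). It also passed with PS20 with replicates 3 to 5 alone (0.32, adjusted p = 2.40e-05). Its means in control and PS20 were 166 and 162 CPM in replicates 1 and 2, and 156 and 192 CPM in replicates 3 to 5. In CTSD 48.04% of the exonic bases are shared with other genes, as are 31.65% of those of CTSZ and 21.51% of those of CTSA.

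The 3 glycosidases split. GAA (ENSG00000171298.13, chromosome 17, 80101556 to 80119881), the acid alpha-glucosidase that breaks down glycogen, was at 37.1, 47.5, 37.96, 39.02 and 39.3 CPM in control, 60.2, 61.7, 55.5, 55.7 and 55.6 CPM in PS20 and 52.3, 58.4, 46.2, 42.5 and 45.6 CPM in PS80. The PS20 libraries were all above control, whereas control replicate 2 reached into the PS80 range. GAA rose 1.42-fold with PS20 (log2 fold change 0.51 ± 0.09, adjusted p = 5.01e-05) and by 0.29 ± 0.09 on the log2 scale with PS80 (adjusted p = 0.0124), a call that ended without PS80 replicate 2 (adjusted p = 0.0524). GLA (ENSG00000102393.14, chromosome X, 101393273 to 101408012), the alpha-galactosidase, was at 37.9, 42.6, 51.1, 47.0 and 43.2 CPM in control, 26.9, 33.3, 32.4, 31.9 and 36.3 CPM in PS20 and 44.0, 45.4, 45.9, 43.7 and 45.5 CPM in PS80. The PS20 libraries were all below the other groups, by 0.46 ± 0.08 on the log2 scale against control (adjusted p = 4.96e-05), and with PS80 the log2 fold change was 0.02 ± 0.07 (adjusted p = 0.881). HEXA, a subunit of hexosaminidase, passed against control with neither (0.15 and -0.11, adjusted p = 0.189 and 0.364). With replicates 3 to 5 alone HEXA passed with PS20 (0.31, adjusted p = 0.00589). Its means in control and PS20 were 29.8 and 27.5 CPM in replicates 1 and 2, and 22.7 and 28.8 CPM in replicates 3 to 5.

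Of 4 proton pump genes, 1 fell with PS20 and 3 fell with PS80, and none rose. ATP6V0D1, a subunit of the membrane sector, was at 174 ± 7.73 CPM in control, 141 ± 11.6 CPM in PS20 and 140.1 ± 11.8 CPM in PS80 (log2 fold changes -0.30 and -0.31, adjusted p = 5.18e-04 and 8.29e-04). ATP6V1H, a regulatory subunit of the catalytic sector, and ATP6AP1, an accessory protein, fell with PS80 (-0.28 and -0.19, adjusted p = 0.00838 and 0.00468). ATP6V1A, the catalytic subunit, was at 240.4 ± 9.70, 259 ± 14.7 and 224 ± 4.35 CPM and passed with neither (0.11 and -0.10, adjusted p = 0.0524 and 0.0991). It passed with PS20 without PS20 replicate 1 or 4 (adjusted p 0.0370 to 0.0409), and with PS80 without control replicate 2 (0.0415).

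PS80 and PS20, compared directly at the same dose and time, differed in 25 of the 37 tested members, with 6 higher and 19 lower in PS80 (adjusted p over all 12769 genes), beside 18.2% and 17.3% of all tested genes and 35.5% in either direction. The median log2 difference, PS80 over PS20, was -0.16 beside -0.00 for all tested genes. Of the 7 members that passed with a log2 difference of at least 0.4, LAMP3 was lower in PS80 by 1.53 ± 0.12 on the log2 scale, 2.88-fold (adjusted p = 1.12e-08). WIPI1, GABARAPL1, CTSL and ULK1 were lower in PS80 (-0.61, -0.58, -0.56 and -0.41, adjusted p = 1.27e-04, 2.60e-06, 9.43e-07 and 0.00215). TFEB and GLA were higher in PS80 (0.71 ± 0.16 and 0.48 ± 0.07, adjusted p = 0.00192 and 4.59e-05). MAP1LC3B, SQSTM1 and LAMP2 were lower in PS80 (-0.39, -0.26 and -0.27, adjusted p = 1.46e-05, 0.00724 and 6.77e-04), and CTSB, CTSC, CTSZ and ATG9A were higher (0.24, 0.28, 0.24 and 0.26, adjusted p = 0.00172, 0.00267, 0.00163 and 0.00309). The calls of ATP6AP1, CTSD, GAA, HEXA and WIPI2 (-0.13, -0.21, -0.22, -0.26 and -0.17, adjusted p = 0.0419, 0.0335, 0.0379, 0.024 and 0.0249) ended on leaving out single libraries. For ATP6AP1 these were control replicates 3 and 4, PS20 replicates 2 to 5 and PS80 replicates 1, 3, 4 and 5 (adjusted p 0.0515 to 0.111). For CTSD they were PS20 replicates 3 to 5 and PS80 replicates 1, 4 and 5 (0.0598 to 0.108), and for GAA PS20 replicates 1 and 2 and PS80 replicates 3 to 5 (0.0717 to 0.105). For HEXA they were PS20 replicates 3 and 4 and PS80 replicates 3 and 5 (0.0512 to 0.0528), and for WIPI2 PS20 replicate 3 and PS80 replicates 1 and 3 (0.0526 to 0.0757). No difference was detected between the polysorbates for GABARAPL2 (95% interval of the log2 difference -0.13 to 0.13), ATP6V0D1 (-0.14 to 0.13), LAMP1 (-0.16 to 0.10), CTSA (-0.03 to 0.21), BECN1 (-0.20 to 0.11) or ATG14 (-0.18 to 0.32), which fell with both against control. With replicates 1 and 2 alone 6 of the 25 calls were kept, and with replicates 3 to 5 alone all 25. Over all tested genes, 2324 were higher and 2203 lower in PS80 when all libraries were used. These numbers were 786 and 611 with replicates 1 and 2 alone, and 2477 and 2438 with replicates 3 to 5 alone. For MITF the interval was 0.03 to 0.39, above 0, but the adjusted p was 0.0534; it passed without control replicate 2 or PS20 replicate 1 (0.0320 to 0.0449).

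Of the 37 tested members, 21 had groups that did not overlap between PS20 and control, beside 32.5% of all tested genes. Between PS80 and control this held for 12 members, beside 19.6%, and between PS80 and PS20 for 20, beside 22.7%.

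Per kilobase of exon, the highest control level was that of LAMP1, 87.1 ± 4.45 CPM per kilobase (SD, n = 5), then CTSB at 51.7 ± 3.28 and ATP6V1A at 39.6 ± 1.60, and the lowest was that of TFEB at 0.670 ± 0.158. The length used is that of all annotated exons of a gene, for example 24849 bases for CTSC, 19384 for CTSZ and 5741 for LAMP1. The order between genes depends on these lengths and on shared exonic bases, and is a description only. Of 36 neighbouring pairs in the order, 30 overlapped in their control libraries. The 6 that did not were LAMP1 and CTSB, CTSB and ATP6V1A, ATG13 and ATG9A, ULK1 and ATG16L1, ATG16L1 and ATG14, and HEXA and TFEB. The summed level of the members was 4463 to 4717 CPM in control, 4328 to 4677 CPM in PS20 and 4257 to 4496 CPM in PS80.

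**Figure D4:**
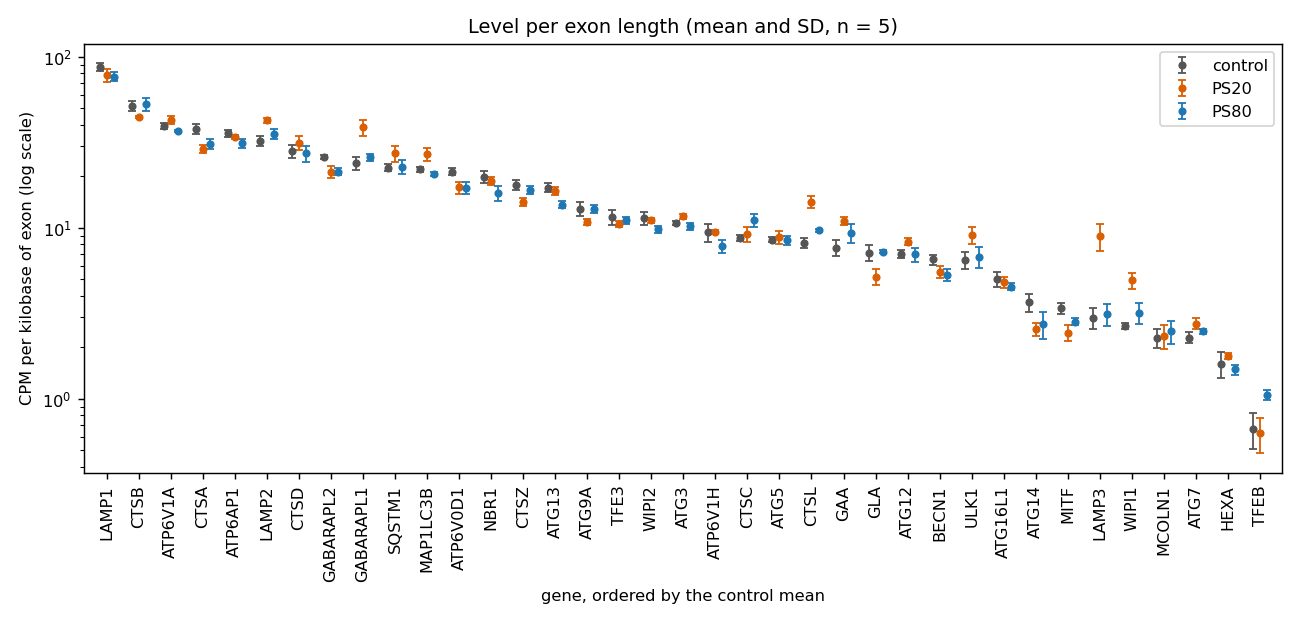
Level of each tested member per kilobase of exon (log scale, mean and SD, n = 5) in control, PS20 and PS80, ordered by the control mean. LAMP1 is highest at 87.1 CPM per kilobase and TFEB lowest at 0.670.

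The other genes of the pathway gave a wider view. Of 141 listed by function, 123 were tested: 44 rose and 28 fell with PS20 (median log2 fold change 0.11), and 12 rose and 23 fell with PS80 (median -0.02), against the background shares above. With PS20, 14 of 30 other hydrolases rose and 8 fell, 12 of 22 other membrane and sorting genes rose and 2 fell, and 7 of 16 other pump genes rose and 5 fell. Nutrient sensing genes gave 5 higher and 7 lower of 19, other core genes 4 and 3 of 21, and other receptors and fusion genes 2 and 3 of 15. Among the genes with the largest changes, RRAGD, a Rag GTPase, was at 3.17 ± 0.704 CPM in control, 9.59 ± 2.37 CPM in PS20 and 5.42 ± 0.545 CPM in PS80 (1.62 and 0.79, adjusted p = 4.96e-07 and 0.00327). SESN2, a leucine sensor, rose with PS20 (0.99 ± 0.11, adjusted p = 2.01e-07), and its exon lengths also match a scaffold gene. ARSA and IDS, lysosomal sulfatases, rose with PS20 (0.94 and 0.86, adjusted p = 9.04e-06 and 4.70e-04). The level of IDS is uncertain, since 75.91% of its exonic bases are shared with other genes, and its PS20 libraries (6.06 to 13.2 CPM) overlapped control (4.72 to 6.28 CPM). SMPD1, the acid sphingomyelinase, fell from 84.8 ± 7.25 CPM to 40.6 ± 5.09 CPM with PS20 and 44.2 ± 4.86 CPM with PS80 (-1.06 and -0.94, adjusted p = 6.67e-09 and 2.15e-07). DEPTOR, an mTOR inhibitor, fell with both (-0.87 and -0.88, adjusted p = 1.34e-05 and 2.38e-05). ATP6V0A1, a pump subunit, and PPT1, a thioesterase, fell with PS20 (-0.67 and -0.59, adjusted p = 2.35e-08 and 3.24e-07). With PS80, ARSA, ATG10 and LAPTM4B rose (0.53, 0.39 and 0.35, adjusted p = 0.00462, 0.00725 and 1.23e-04), and RRAGC, with 23.12% of its exonic bases shared, fell (-0.49, adjusted p = 0.00399). ARSA did not pass with replicates 3 to 5 alone (adjusted p = 0.0508), nor ATG10, RRAGC and RRAGD with replicates 1 and 2 alone (0.308, 0.0505 and 0.0627).

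**Figure D5:**
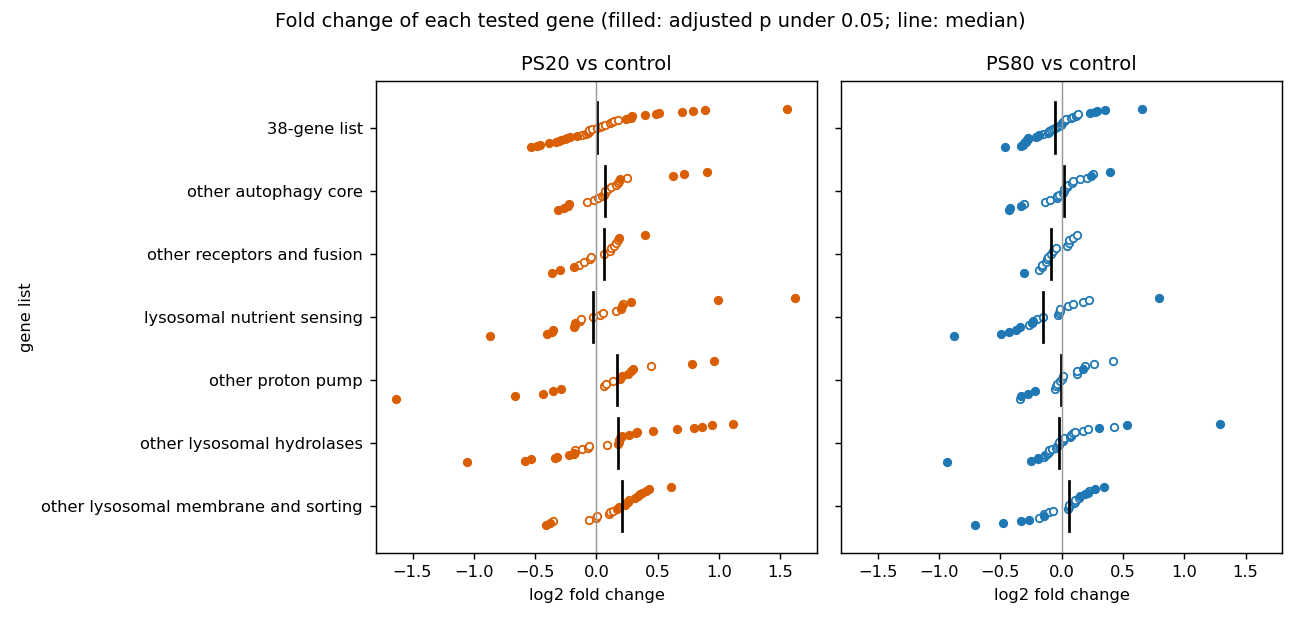
Log2 fold change of each tested gene of the 38-gene list and of the 6 other pathway lists, for PS20 and for PS80 against control; filled points passed at an adjusted p under 0.05 and the black line is the median. With PS20 the membrane and sorting list lies mostly to the right, with 12 of 22 higher and 2 lower.

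PS80 against PS20, 10 of the 123 other pathway genes were higher and 43 lower in PS80 (median log2 difference -0.12), beside 18.2% and 17.3% of all tested genes. ATP6V0A1, GALNS, PPT1 and PLA2G15 were the highest in PS80 (0.61, 0.51, 0.39 and 0.29, adjusted p = 1.91e-07, 1.89e-05, 9.04e-05 and 0.00729), and RRAGD, SESN2, ATP6V1E2 and AGA the lowest (-0.83, -0.77, -0.59 and -0.58, adjusted p = 4.55e-04, 5.62e-06, 3.59e-04 and 1.12e-05). PLA2G15 did not pass with replicates 3 to 5 alone (adjusted p = 0.0687), nor RRAGD with replicates 1 and 2 alone (0.102). Of 10 genes listed as related to TFEB or mTORC1 signalling, 7 were tested, and with PS20 5 rose and 1 fell, beside the 24.4% and 23.9% of all tested genes given above. TRIB3, DDIT4 and HMOX1, which also respond to cell stress, rose with PS20 (1.49, 1.94 and 0.74, adjusted p = 7.86e-09, 3.08e-09 and 6.99e-05), as did RRAGD and SESN2. FLCN, a regulator of the Rag GTPases, fell with PS20 and PS80 (-0.35 and -0.43, adjusted p = 5.76e-04 and 1.60e-04), and UVRAG, a partner of BECN1, passed with neither (0.10 and -0.04, adjusted p = 0.189 and 0.64). With PS80 3 rose (RRAGD, TRIB3 and DDIT4) and 1 fell, beside 17.4% and 16.0%. The summed level of the list was 259 to 282 CPM in control, 460 to 621 CPM in PS20 and 288 to 341 CPM in PS80, and TRIB3 made up the largest share of it, at 76.7 to 90.01 CPM in control and 184 to 323 CPM in PS20.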

How the data were processed

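PolyA RNA of 15 Caco-2 libraries was analysed, from the whole-number read counts per gene that the authors deposited. Per the file headers, the counts were made with featureCounts 2.0.0 in 11 libraries and 2.0.3 in 4, on the GENCODE v42 annotation with a mapping quality minimum of 10 and with no option for strand or read pairs. Per the submitters' processing notes, cutadapt, STAR 2.7.9a, GRCh38 and DESeq2 1.32.0 were used; the options of the alignment are not given in the sources used here. Without strand, reads of overlapping genes cannot be told apart. Symbols came from a table of gene names by Ensembl gene ID, which matched 62672 of 69215 IDs.

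Genes were filtered with filterByExpr (minimum count 10, minimum total 15), scaled by TMM (factors 0.978 to 1.015) and tested with the quasi-likelihood test of edgeR 4.0.16 in R 4.3.3 on all 15 libraries with 1 term per group. Benjamini-Hochberg adjustment covered all 12769 tested genes, and adjusted p under 0.05 was called. CPM are counts scaled to a common library size on the tested genes with TMM. Fold changes are log2, with standard errors from the F statistic and 95% intervals on 12 residual degrees of freedom. The procedure was tried on simulated data for PS20 against control alone. Far fewer genes were changed there than were called in these data, and all genes had the same spread. It therefore does not cover the setting of these data. Groups follow the sample titles.

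The members and lists were chosen with earlier results of these data known. Values in every library are given for members that passed with an absolute log2 fold change of at least 0.4 in any comparison, and for SQSTM1, MAP1LC3B, TFEB, TFE3 and MITF. Of the other pathway genes the 4 highest and 4 lowest in each comparison are named, among those that passed with a mean of at least 5 CPM. Some items are not reported here.

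Same-numbered PS80 and control libraries deviated together from their group means (r from 0.102 to 0.304, all 5 above 0.1). Only 2 of these 5 matched their own number best. For PS20 and control 3 of 5 were above 0.1, and for PS80 and PS20 also 3 of 5. The reported tests use no pairing in any comparison, and the replicate number was fitted as a block only as an alternative. The alternatives were RLE scaling, library totals, DESeq2 1.42.0, no filter, a minimum of 5 CPM, 2 groups only, a replicate block, each library left out, and replicates 1 and 2 or 3 to 5 alone. A comparison of ATG8 family proteins was planned and not run here.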

Additional observations from a re-analysis of the deposited data

Results flagged for a closer look

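Of 111 groups of 5 libraries checked, 6 held a library far from the other 4, and chance flags about 1 in 20 groups (5%). ATG7 was at 17.5 CPM in control replicate 2, with the others at 20.5 to 21.0 CPM. GAA was at 47.5 CPM in the same library, with the others at 37.1 to 39.3 CPM, and ATP6V1A at 223.6 CPM there, with the others at 240.4 to 247 CPM. GABARAPL1 was at 95.9 CPM in PS80 replicate 4, with the others at 106 to 108 CPM. SQSTM1 was at 165 CPM in PS20 replicate 1, with the others at 209 to 222 CPM. HEXA was at 26.3 CPM in PS20 replicate 2, with the others at 28.6 to 29.1 CPM.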

How the results depend on the processing

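No alternative reversed any of the 87 single-gene results checked, all of which had passed in the reported fit. Members that had not passed were left out of this check. No scaling moved the median of all genes by over 0.1 on the log2 scale. The counts of members and pathway genes that moved by over 1.5 times did so with replicates 1 and 2 alone. There 7 members rose with PS20 (8 fell), 1 rose and 3 fell with PS80, and 3 were higher and 3 lower in PS80 than in PS20. Of the other pathway genes 22 rose and 15 fell with PS20, 2 and 13 with PS80, and 4 and 13 were higher and lower in PS80 than in PS20. The calls over all tested genes also fell there, as given above. Fewer libraries were fitted with replicates 1 and 2 alone, and the part of their number was not tested. Some log2 differences between PS80 and PS20 were smaller there than with replicates 3 to 5 alone (GABARAPL1, -0.36 and -0.72). Others were larger (LAMP3, -1.72 and -1.40). Of 2088 single-gene values, 95 no longer passed: 43 with replicates 1 and 2 alone, 39 with 1 library left out, 9 without a filter and the rest in other alternatives. With replicates 1 and 2 alone TFEB (adjusted p = 0.0565), CTSL (0.0767) and GAA (0.0562) did not pass with PS80, nor MAP1LC3B (0.118), SQSTM1 (0.199) and MITF (0.145) with PS20. With each library left out in turn, 11 to 13 members rose and 10 to 12 fell with PS20, 4 to 5 and 11 to 14 with PS80, and 6 to 7 were higher and 15 to 19 lower in PS80 than in PS20; for the other pathway genes these ranges were 37 to 45 and 22 to 28, 8 to 14 and 19 to 24, and 9 to 11 and 36 to 45. Fitted with the replicate block, 14 members rose and 11 fell with PS20, 5 and 12 with PS80, and 7 and 19 were higher and lower in PS80 than in PS20. No call was lost with the block, and ATG3, CTSD and ATP6V1A (PS20), LAMP2 (PS80) and MITF (PS80 against PS20) were gained. Without a filter 4 PS80 calls were lost, of WIPI2, MITF, LAMP1 and ATP6AP1, and 5 between PS80 and PS20, of WIPI2, ATG3, GAA, HEXA and ATP6AP1, where 14 members were lower. Depth limits TFEB most, with 17 to 269 counts per library.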
